A study of Mus musculus with 4 samples.

Results

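The transcription factors of the naive pluripotent state, and the co-activator Tcl1 that is listed with them, were followed in mouse D3 embryonic stem cells in which Pnpla6 had been silenced by siRNA. The list held 10 genes: Esrrb, Klf2, Klf4, Klf5, Tbx3, Tfcp2l1, Zfp42, Nr0b1, Tcl1 and Prdm14. A probe belonged to a gene when the RefSeq accession it carries on the array names that gene. This gave 13 probes of 9 genes among 41174 probes other than controls, of which 24375 had a RefSeq symbol; Prdm14 was matched by no probe and was not analysed here. Klf2 and Zfp42 had 2 probes each, Tfcp2l1 had 3, and the other 6 genes had 1. All 13 probes were well above background in all 8 channels, so no member was removed by the filter on dim probes, and no member spot was saturated. The 9 genes were tested among 21752 genes or transcripts.

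D3 is an established line of mouse embryonic stem cells, and the study compared silenced with control cells during differentiation. Pnpla6 encodes neuropathy target esterase, a phospholipase that degrades phosphatidylcholine. Both kinds of cells were seeded as embryoid bodies in medium that lacked LIF, a cytokine that holds such cells in the undifferentiated state; RNA was isolated 24 h and 96 h later. Silenced cells had been transfected with siRNA against Pnpla6 by lipofection; what the control cells received is not given in the labels. Control and silenced RNA of the same time shared an array, one in Cy3 and the other in Cy5, with 2 arrays per time and the dyes exchanged between them. Slide 1 carried 3 of the 4 arrays, and 96 h replicate 2 lay alone on slide 2. Whether replicates were grown as separate cultures is not given in the labels, so the p-values measure no more than a spread between arrays, which may be technical. In the silencing fits a term for the dye exchange takes up the difference that same-numbered arrays share. Their p-values measure only the spread left after it, which is largely pooled over genes. A gene whose 2 arrays of a time lie far apart can thus have a small SE.

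Naive pluripotency is the state of the inner cell mass and of mouse embryonic stem cells kept with LIF. It is held by a network of transcription factors that bind at many of the same enhancers and sustain each other: LIF acts through Stat3 on Klf4 and Tfcp2l1, Wnt signalling relieves repression of Esrrb, and Tbx3 lies downstream of PI3K signalling. When LIF is withdrawn the network is taken down, and formative genes such as Fgf5, Pou3f1 and Dnmt3b come up as cells move towards the state of the egg-cylinder epiblast.

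Across the 4 arrays 62.5% to 68.7% of the spots other than controls were well above background in a channel, and the number of arrays limits the precision. The stem cell identity of the cultures was checked on Pou5f1, Sox2, Nanog, Utf1 and Sall4, which were well above background in all 8 channels. Pnpla6 stood at 54.9% of the control level at 24 h (log2 ratio −0.87, limma adjusted p = 9.8e-12) and at 100.6% at 96 h, so it was low at 24 h and not at 96 h. Pou5f1, the factor Oct4, gave log2 ratios of 1.58 and −0.21 on the 24 h arrays and of 0.0065 and −2.11 on the 96 h arrays. Oct4 is known to act together with the naive factors. Its values on the arrays of a time lay far apart, and no direction is drawn from them.

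At 24 h, when Pnpla6 was low, none of the 9 naive factors passed between silenced and control cells in limma on its brightest probe, the one tested for each gene, where 0.391% of all genes passed in either direction. The log2 ratios of the 9 genes lay between −0.11 for Klf5 and 0.14 for Tfcp2l1, with a median of 0.02 against 0.00068 over all genes tested. At an unadjusted p under 0.05 there was 1 member, Tfcp2l1 (adjusted p = 0.533), and another Tfcp2l1 probe, A_52_P516473, passed at 24 h in a fit across all probes (0.44, limma adjusted p = 2.7e-05). A call that misses the threshold does not show equal levels: the 95% interval of the ratio ran from −0.07 to 0.18 for Tcl1, from −0.10 to 0.16 for Esrrb, from −0.12 to 0.13 for Klf4 and from −0.24 to 0.01 for Klf5. Of the 9 members, Tfcp2l1 alone was positive on both 24 h arrays (0.05 and 0.24), against 19.4% of all genes, and Klf5 alone was negative on both (−0.05 and −0.17), against 18.5%. The signs of the other 7 were mixed. Silenced levels lay above control levels without overlap for 1 member, Tfcp2l1, against 10.2% of all genes.

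At 96 h the naive factors were higher in the silenced cells. Of the 9 genes tested, 7 rose and none fell (Benjamini-Hochberg adjusted p under 0.05 in limma), where 13.5% of all genes passed, 6.64% higher and 6.84% lower. With median centring of the arrays 7 members again rose, and all genes split into 1126 higher and 672 lower, against 1445 and 1488. Tcl1 rose most, 1.44-fold, and Esrrb, Tbx3, Nr0b1, Zfp42, Klf4 and Tfcp2l1 rose between 1.21-fold and 1.29-fold. Klf2 and Klf5 did not pass. The median log2 ratio was 0.30 over the members against 0.00098 over all genes tested, and all 9 ratios were positive. In these cultures a larger share of cells that express a factor and more RNA per cell cannot be told apart.

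The 7 rises depended on how the arrays were fitted. Each had an SE of 0.06 or 0.07 from a fit with a dye term and 1 residual degree of freedom. With no dye term no member passed in limma (smallest adjusted p 0.068, for Tcl1; 6 members at an unadjusted p under 0.05). None passed with the authors' ratios (smallest adjusted p 0.179; 7 members at an unadjusted p under 0.05), and none with any 1 of the 4 arrays left out (3 to 6 members at an unadjusted p under 0.05). With a smaller background offset 2 passed, Tcl1 and Esrrb. The members' median ratio was 0.28 to 0.31 over the alternatives that kept all 4 arrays, 0.20 without 96 h replicate 2 and 0.37 without 96 h replicate 1. Single members moved more: Tfcp2l1 went to −0.0090 with the mean over its probes, and Nr0b1 ran from −0.0091 to 0.62 with 1 array left out.

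**Figure D1:**
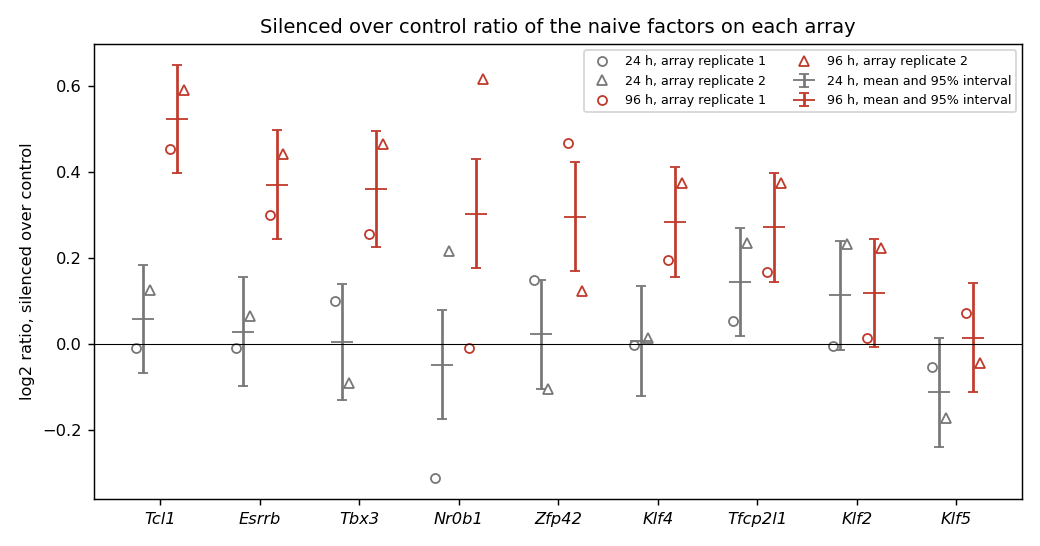
Log2 ratio of silenced to control cells (vertical axis) for the 9 naive factors at 24 h (grey) and 96 h (red); circles and triangles are the arrays of replicate 1 and 2, bars the limma mean with its 95% interval, and the genes are ordered by the 96 h ratio. The grey intervals reach or cross 0 for all genes but Tfcp2l1, and the red intervals lie above 0 for all but Klf2 and Klf5; the 2 arrays of Nr0b1 at 96 h sit at −0.01 and 0.62.

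Tcl1 encodes a co-activator of the kinase Akt and is a known target of Oct4 and Esrrb in embryonic stem cells. On the log2 scale of normalised channel intensity its level at 24 h was 11.81 and 11.51 in the control channels and 11.80 and 11.63 in the silenced channels, for replicates 1 and 2. At 96 h it was 11.44 and 11.28 in control and 11.89 and 11.87 in silenced cells. The 24 h groups overlapped; at 96 h both silenced channels were above both control channels. The 96 h ratio was 0.45 and 0.59 on the 2 arrays and 0.52 in the fit (SE 0.06, n = 2 arrays, limma adjusted p = 6.5e-08). This ratio ranked 38 from the top of all genes tested.

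Esrrb is an orphan nuclear receptor at the centre of the naive network and can replace Nanog in keeping stem cells undifferentiated. Its level was 13.13 and 13.03 in the control channels and 13.13 and 13.10 in the silenced channels at 24 h. At 96 h the control channels gave 12.87 and 12.85 and the silenced channels 13.17 and 13.29. Control cells at 96 h were the lowest group. The silenced channels at 96 h lay above those at 24 h, but this difference did not pass (0.12, limma adjusted p = 0.356) and was −0.12 with the processed signals. The 96 h ratio was 0.30 and 0.44 on the arrays and 0.37 in the fit (SE 0.06, limma adjusted p = 3.7e-05).

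Tbx3 is a T-box repressor that supports self-renewal downstream of PI3K and is also expressed in early endoderm. Its control channels went from 12.55 and 12.59 at 24 h to 12.38 and 12.26 at 96 h. Its silenced channels went from 12.65 and 12.50 to 12.63 and 12.73. As for Esrrb, the groups overlapped at 24 h and were apart at 96 h, with control cells low. The 96 h ratio was 0.25 and 0.47 on the arrays and 0.36 in the fit (SE 0.07, limma adjusted p = 0.00014).

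Nr0b1, the orphan receptor Dax1, is a target of Oct4, Nanog and Stat3 and restrains Oct4 and Esrrb activity. Its 24 h level was 13.13 and 13.56 in control and 12.82 and 13.78 in silenced channels, the widest spread among the 9 genes. At 96 h it was 11.69 and 11.30 in control and 11.68 and 11.92 in silenced channels. The groups overlapped at both times, and only replicate 2 of 96 h had a ratio above 0 (0.62, against −0.01 on replicate 1). The fit gave 0.30 (SE 0.06, limma adjusted p = 0.00059), and without the dye term the same ratio did not pass (limma adjusted p = 0.702). The rise of Nr0b1 therefore rests on 1 array, 96 h replicate 2.

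Zfp42, known as Rex1, is the classical reporter of the undifferentiated state. Its 96 h level was 13.82 and 13.92 in control and 14.29 and 14.04 in silenced channels, so the groups did not overlap. The ratio was 0.47 on replicate 1 and 0.12 on replicate 2, with 0.30 in the fit (SE 0.06, limma adjusted p = 0.00079). The second Zfp42 probe had the same direction on both arrays, at 0.32 and 0.14.

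Klf4 and Tfcp2l1 are the members most directly under LIF and Stat3. Klf4 stood at 15.16 and 15.03 in control and 15.35 and 15.40 in silenced channels at 96 h, with a ratio of 0.28 (SE 0.06, limma adjusted p = 0.0014). On its brightest probe Tfcp2l1 stood at 11.78 and 11.77 in control and 11.95 and 12.14 in silenced channels, with a ratio of 0.27 (SE 0.06, limma adjusted p = 0.0020). Silenced and control channels were apart at 96 h for both genes, and for Tfcp2l1 on this probe at 24 h too. In all, 6 of the 9 members had non-overlapping levels at 96 h with the silenced cells higher, against 18.7% of all genes. The ratio was positive on both 96 h arrays for 7 members, against 25.8% of all genes, and 6 of the 7 members that rose were among them. It was negative on both arrays for none, against 25.5%.

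Klf2 and Klf5, Krüppel-like factors that can partly stand in for Klf4 in self-renewal, did not pass on the probe tested. The Klf2 ratio at 96 h was 0.01 and 0.22 on the arrays and 0.12 in the fit (95% interval −0.0080 to 0.24, limma adjusted p = 0.239). The Klf5 ratio was 0.07 and −0.04 and 0.01 in the fit (95% interval −0.11 to 0.14, limma adjusted p = 0.924). The interval of Klf5 lies below the ratio of Tcl1, Esrrb, Tbx3 and the other 4 members that rose, but pairwise differences between members were not tested. The Klf2 interval overlaps those of most of them.

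The promoters of the members that rose together at 96 h are shown for 4 genes, to give the sequence around the start sites of the factors whose levels the comparison turns on. The RefSeq promoter table (GRCm38.p6) held 8 promoters of 7 member genes, and none was listed for Klf5, Tbx3 or Prdm14. Each line gives the 250 bases before the start site, 5′ to 3′, and capitals mark matches to the motifs searched.
Tcl1, chr12:105222738-105222987, minus strand: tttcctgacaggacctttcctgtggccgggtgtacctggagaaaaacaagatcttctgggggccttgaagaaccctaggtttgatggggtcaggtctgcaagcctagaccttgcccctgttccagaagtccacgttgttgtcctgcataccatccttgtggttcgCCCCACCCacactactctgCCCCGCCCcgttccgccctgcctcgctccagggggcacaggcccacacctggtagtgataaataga
Esrrb, chr12:86360867-86361116, plus strand: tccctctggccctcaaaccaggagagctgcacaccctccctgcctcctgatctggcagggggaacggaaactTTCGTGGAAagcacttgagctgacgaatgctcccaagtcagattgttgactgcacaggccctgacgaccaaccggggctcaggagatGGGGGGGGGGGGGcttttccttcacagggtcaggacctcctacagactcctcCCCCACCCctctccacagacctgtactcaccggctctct
Klf4, chr4:55532476-55532725, minus strand: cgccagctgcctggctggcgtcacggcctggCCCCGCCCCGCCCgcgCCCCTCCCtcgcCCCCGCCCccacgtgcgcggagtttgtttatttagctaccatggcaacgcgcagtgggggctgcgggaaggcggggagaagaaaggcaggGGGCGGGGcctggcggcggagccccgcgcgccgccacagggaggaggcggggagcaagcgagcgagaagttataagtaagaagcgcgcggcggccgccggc
Zfp42, chr8:43307010-43307259, minus strand: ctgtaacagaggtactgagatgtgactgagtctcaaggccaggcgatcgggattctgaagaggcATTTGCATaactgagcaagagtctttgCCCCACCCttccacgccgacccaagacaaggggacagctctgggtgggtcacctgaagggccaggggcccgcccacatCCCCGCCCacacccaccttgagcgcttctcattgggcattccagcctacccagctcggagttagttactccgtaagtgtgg
The motifs were searched on both strands over 250 bases before and 50 after each start site: GGGNGGGG (Krüppel-like factors), AAGGTCA (Esrrb), TTCNNNGAA (Stat3), ATGCAAAT (the octamer of Oct4) and the Tfcp2l1 motif (CCAG, 6 unspecified bases, CCAG). GGGNGGGG was found in 6 of the 8 member promoters, of 5 genes (Esrrb, Klf2, Klf4, Zfp42 and Tcl1), and in 33.2% of all 32851 promoters. Matches of this motif overlap each other in runs of G, as in Esrrb. The octamer was found once, in Zfp42, at position −186 from the start site, and in 1.74% of all promoters. TTCNNNGAA was found once, in the Esrrb promoter shown, against 8.3% of all promoters. That promoter was picked for printing because it holds this match, and the other Esrrb promoter holds none. Neither AAGGTCA (4.72% of all) nor the Tfcp2l1 motif (3.44%) was found in a member promoter. The Tfcp2l1 and Nr0b1 windows, which are not printed, held no match to any motif searched. Klf2, which did not pass on its tested probe, held GGGNGGGG as Klf4, Tcl1, Esrrb and Zfp42 did.

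Where a gene had several probes, these did not always give the same answer. In a fit across all 28080 probes, the second Klf2 probe had ratios of 0.40 and 0.31 on the 96 h arrays, and the rise of 0.36 passed (SE 0.06, limma adjusted p = 3.7e-05), unlike that of the brightest probe. At 24 h it gave 0.27 and 0.11 (fit 0.19, limma adjusted p = 0.260). Both Klf2 probes had mean ratios above 0 at both times, and the call at 96 h depended on the probe.

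The probes of Tfcp2l1 went in opposite directions. The probe A_52_P516473 gave 0.48 and 0.39 on the 24 h arrays (fit 0.44, SE 0.06, limma adjusted p = 2.7e-05) and −0.36 and −0.46 on the 96 h arrays (fit −0.41, SE 0.06, limma adjusted p = 2.5e-06). Between 24 h and 96 h its ratio changed by −0.85 (SE 0.09, limma adjusted p = 5.3e-10). The brightest probe, A_52_P175376, rose at 96 h, and A_52_P63232, with raw signals of 81 to 236.5, gave 0.09 at 24 h and 0.11 at 96 h with no call. With the mean over its probes the 96 h ratio of Tfcp2l1 was −0.0090 and did not pass (limma adjusted p = 0.946). Which part of the transcript each probe covers is not in the files used here, so the rise of Tfcp2l1 holds for the brightest probe only. On that setting Klf2 passed instead (0.24, limma adjusted p = 0.015), and the number of members that rose was again 7.

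**Figure D2:**
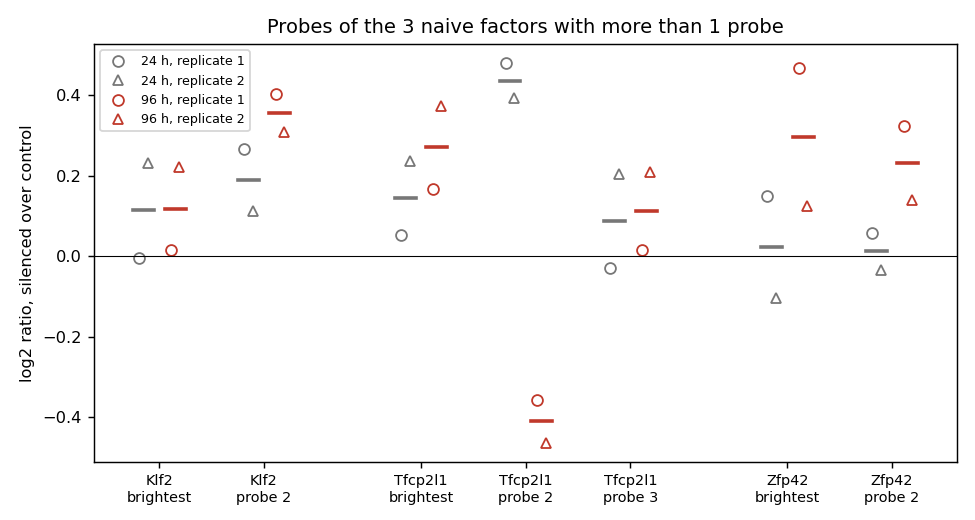
Log2 ratio of silenced to control cells (vertical axis) on each array for every probe of Klf2, Tfcp2l1 and Zfp42; circles are replicate 1, triangles replicate 2, and short lines the mean of the 2 arrays, at 24 h (grey) and 96 h (red). The second Tfcp2l1 probe lies at 0.48 and 0.39 at 24 h and at −0.36 and −0.46 at 96 h, while the other probes have mean ratios above 0 at both times.

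The silencing effect at 96 h was then set against that at 24 h by a test of the difference itself. It was larger at 96 h for 5 members: Tcl1 (difference 0.46, limma adjusted p = 0.00041), Nr0b1 (0.35, 0.0086), Esrrb (0.34, 0.011), Tbx3 (0.36, 0.013) and Klf4 (0.28, 0.0498); the second value of each is the limma adjusted p. Of all genes 7.03% passed, with the ratio going up in 2.89% and down in 4.14%. Klf4 lies at the threshold, and it did not pass without the filter on dim probes (limma adjusted p = 0.059), with median centring (0.204) or with the mean over a gene's probes (0.076). Zfp42 missed the threshold (0.27, limma adjusted p = 0.053), and the differences of Klf5 (0.13), Tfcp2l1 (0.13) and Klf2 (0.0048) did not pass. No member passed without the dye term (smallest limma adjusted p 0.463; 4 at an unadjusted p under 0.05).

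The same levels were also read along time. In the control cells 3 members fell from 24 h to 96 h and none rose: Klf5 fell 3.17-fold (log2 difference −1.66, SE 0.09, limma adjusted p = 1.8e-05), Nr0b1 3.62-fold (−1.85, SE 0.21, limma adjusted p = 0.00043) and Zfp42 1.48-fold (−0.57, SE 0.10, limma adjusted p = 0.0031). Over all genes 36.4% changed, 19.5% up and 16.9% down. The other differences in control cells were −0.30 for Tcl1, −0.25 for Tbx3, −0.22 for Esrrb, −0.12 for Klf4, −0.03 for Tfcp2l1 and 0.19 for Klf2, and none passed in this fit, which has time between arrays and so a larger SE. With the replicate number as a block, Tcl1 (limma adjusted p = 0.0032), Esrrb (0.019) and Tbx3 (0.021) also fell, which makes 6. Far more of all genes changed with that block too (counts in the closing section), so the 6 are not to be set against the 36.4%. With 1 array left out 4 to 6 passed, 6 without 24 h replicate 2 and 5 without 96 h replicate 1; the 4 without 96 h replicate 2 include a rise of Klf2 (0.26, limma adjusted p = 0.048).

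In the silenced cells the same 3 genes fell, Klf5 2.90-fold (limma adjusted p = 2.8e-05), Nr0b1 2.83-fold (limma adjusted p = 0.0011) and Zfp42 1.23-fold (limma adjusted p = 0.046). Over all genes 37.2% changed, 19.6% up and 17.7% down. The fall of Zfp42 there is not shown by its second probe (−0.17, limma adjusted p = 0.246), nor without 96 h replicate 2 (−0.23, limma adjusted p = 0.072). The differences of the other 6 were positive, from 0.09 for Tfcp2l1 and 0.10 for Tbx3 to 0.12 for Esrrb, 0.16 for Klf4, 0.16 for Tcl1 and 0.19 for Klf2, and none passed. With the scanner's processed signals Esrrb gave −0.12, Klf4 −0.09, Tbx3 −0.12, Tfcp2l1 −0.07 and Klf2 −0.09, so these signs are not settled. Without 24 h replicate 1 Klf4 (0.35), Tcl1 (0.28) and Tbx3 (0.23) passed as rises in silenced cells (limma adjusted p = 0.0037, 0.016 and 0.029). The 2 time courses come from the same arrays as the silencing effects, and the difference between them is the one tested in the preceding comparison. The second Klf2 probe fell in both, by 0.57 in control (limma adjusted p = 0.0081) and by 0.40 in silenced cells (limma adjusted p = 0.033), opposite in sign to the brightest probe.

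**Figure D3:**
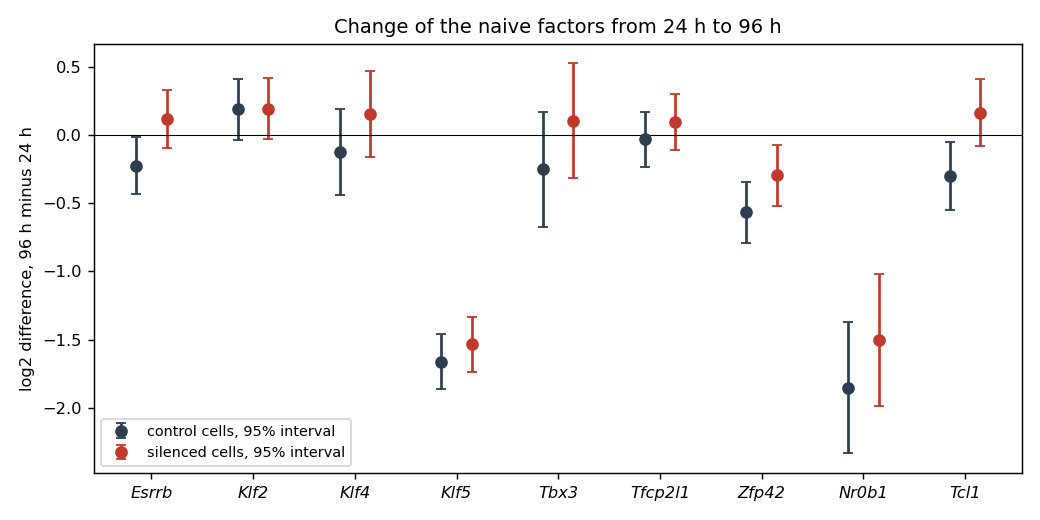
Log2 difference between 96 h and 24 h (vertical axis) for each naive factor in control cells (dark) and silenced cells (red), with 95% intervals from the fit of the 8 channels. Klf5 and Nr0b1 lie lowest in both kinds of cells, at −1.66 and −1.85 in control cells, and for the other 7 genes except Klf2 the control value lies below the silenced value by more than 0.1.

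On the tested, brightest probes the order of the 4 groups differed between members. For Klf5 and Nr0b1 both 24 h groups stood above both 96 h groups, at a mean of 12.44 and 12.33 against 10.79 and 10.78 for Klf5 and of 13.35 and 13.30 against 11.80 and 11.49 for Nr0b1. For Tcl1, Esrrb, Tbx3, Klf4 and Tfcp2l1 the silenced cells at 96 h stood highest and the control cells at 96 h lowest in the mean, with the 24 h groups between. The place of the silenced cells at 96 h above those at 24 h did not pass for any of these 5, and it turned with the processed signals for Esrrb, Tbx3, Klf4 and Tfcp2l1 (values above). In Esrrb these means were 13.23 ± 0.08, 13.11 ± 0.02, 13.08 ± 0.07 and 12.86 ± 0.02 (SD, n = 2 channels each), where the 24 h groups did not differ beyond their spread. In Klf4 the highest mean was 15.38 ± 0.04 and the 24 h means were 15.22 ± 0.22 and 15.22 ± 0.23 (SD, n = 2), so neighbours in this order did not differ beyond their spread. For Klf2 both 96 h groups stood above both 24 h groups, at 13.74 and 13.62 against 13.54 and 13.43. Other probes gave another order. The second Klf2 probe fell from 24 h to 96 h, with log2 differences of −0.57 in control and −0.40 in silenced cells. On the Tfcp2l1 probe A_52_P516473 the silenced channels at 96 h were the lowest, at 9.71 and 9.66. Zfp42 had the 24 h groups at 14.46 and 14.44, silenced cells at 96 h at 14.17 and control cells at 96 h at 13.87. These channel values still hold the dye bias, which cancels in the mean of a group.

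**Figure D4:**
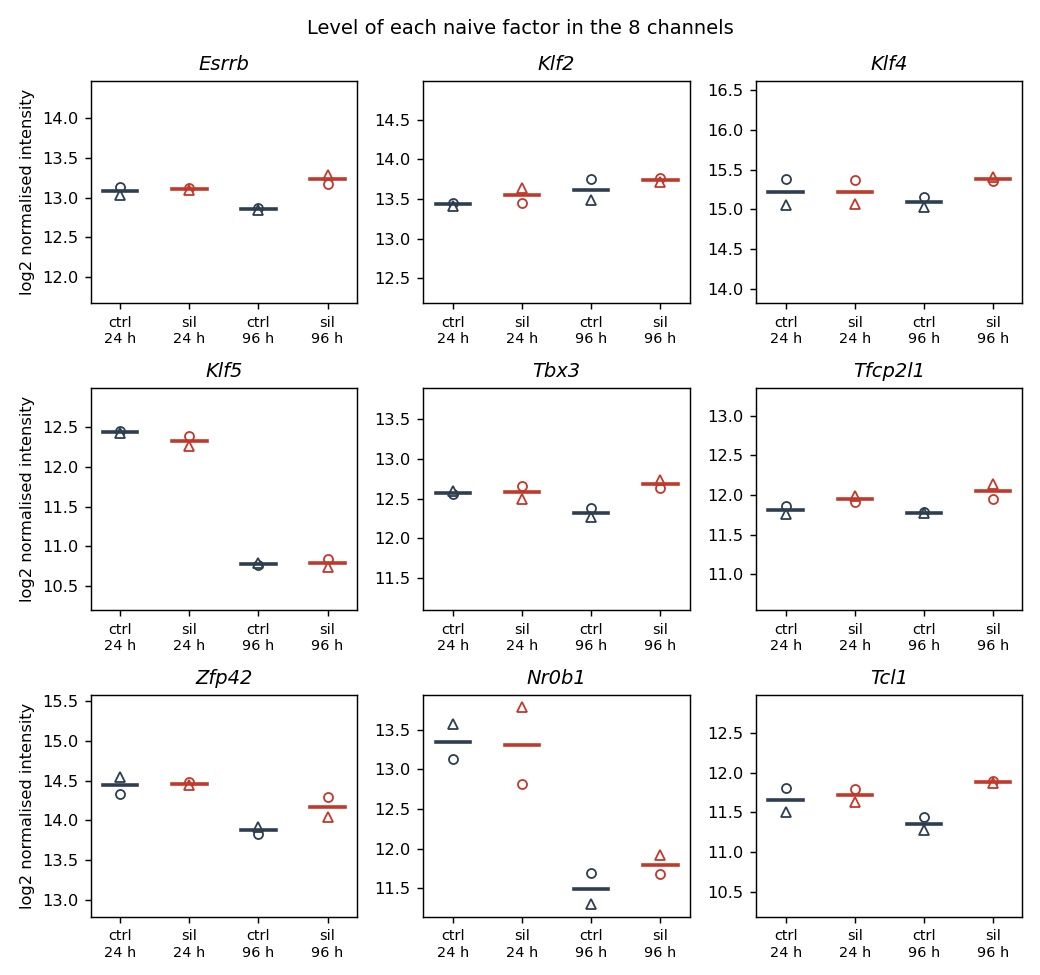
Log2 normalised intensity (vertical axis, the same span of 2.8 log2 units in each panel) of the tested probe of each naive factor in the 8 channels; circles are replicate 1, triangles replicate 2, lines the mean of the 2 channels, in control (dark) and silenced cells (red) at 24 h and 96 h. Klf5 and Nr0b1 drop between the times in both kinds of cells, and in Esrrb, Tbx3, Klf4 and Tcl1 the control cells at 96 h are the lowest group.

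Over the 8 channels, with the dye effect removed, 29 of 36 pairs of members had a positive Pearson correlation, with a median of 0.29 and a range from −0.76 (Klf2 and Klf5) to 0.94 (Klf5 and Nr0b1). These channels are pairs from 4 arrays and share time and array. No share over all pairs of genes is given here, so the values only describe the profiles. The closest to the mean profile of the 9 genes were Esrrb (r = 0.95), Tbx3 (0.94) and Tcl1 (0.93), and Klf2 on its brightest probe was at 0.01. Each member is itself part of this mean, which raises its r. The second Klf2 probe, with other changes over time (values above), was not compared with the mean. Of the 21752 genes or transcripts tested, 13132 had a gene symbol, and only these, without clone-type names, were ranked by likeness to the mean profile. Among them, outside the list, the genes with the most similar profile over the 8 channels were Mtif2 (r = 0.98), Prss35 (0.97), Tgfbi (0.97), Fam78a (0.96) and Manba (0.96). Their 96 h ratios were 0.22, 0.23, 0.88, 0.29 and 0.44.

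Other genes of the stem cell network were taken from lists of known members. These lists were chosen with earlier results of these data known, so their counts are no independent support for the rise of the naive factors. Among naive-state genes outside the 10, 9 of 14 tested rose at 96 h and 1 fell, where 6.64% of all genes were higher and 6.84% lower, with a median ratio of 0.21. One of the 9, Dppa5a, read −0.84 and 1.26 on the arrays. No gene at all passed at 96 h with the authors' ratios, and 15 genes rose and 91 fell without the dye term, which bears on the counts of each list that follows as well. Those with the smallest p were the lysosomal enzyme gene Manba (0.44), Morc1 (0.39), the Oct4 target Fbxo15 (0.31) and the junction protein gene Jam2 (0.28). Dppa2, a chromatin protein of pluripotent cells, fell by 0.23 (limma adjusted p = 0.010); it is named here after its value was seen. At 24 h none of these 14 passed.

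Of the 5 core factors the fit called 1 higher and 1 lower at 96 h, where 6.64% of all genes were higher and 6.84% lower. Sox2 rose (0.36, with 0.27 and 0.46 on the arrays, limma adjusted p = 6.0e-05). The fit called Pou5f1 lower at 96 h (−1.05, limma adjusted p = 4.6e-15) and higher at 24 h (0.68, limma adjusted p = 1.2e-08). Its array values, given above, lay far apart, as did those of Nr0b1 and Dppa5a, which are counted as rises. Nanog (0.01), Sall4 (0.01) and Utf1 (0.05) did not pass. Of 8 genes of LIF, JAK-STAT and Wnt signalling, 2 rose, against 6.64% of all genes: Stat3 (0.22, limma adjusted p = 0.012), the factor through which LIF acts, and the receptor gene Lifr (0.20, limma adjusted p = 0.026). Socs3, a feedback inhibitor that Stat3 induces, gave −0.0098 and did not pass.

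Of 18 genes of the exit from the naive state and of the formative state, 5 fell at 96 h, 1 rose and 12 did not pass, where 6.84% of all genes were lower and 6.64% higher. The median was −0.02. The falls were those of the kinase gene Pim2 (−1.03), the growth factor gene Fgf5 (−0.69), the DNA methyltransferase gene Dnmt3b (−0.64), the POU factor gene Pou3f1 (−0.63) and Zic2 (−0.40). Dnmt3a was the gene that rose (0.26). At 24 h 1 of these 18 genes passed, where 0.391% of all genes did. This was Fgf15, which rose (0.27, with 0.35 and 0.19 on the arrays, limma adjusted p = 0.032). Its silencing effect was lower at 96 h (difference −0.43, limma adjusted p = 0.0012). No gene at all passed at 24 h with the authors' ratios or without the dye term. Zic2, Dnmt3a and Fgf15 are named after their values were seen. Otx2, a factor that drives the exit, was at −0.0097 and did not pass. Dppa5a, Nanog, Sall4, Utf1, Socs3 and Otx2 are likewise named after their values were seen.

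**Figure D5:**
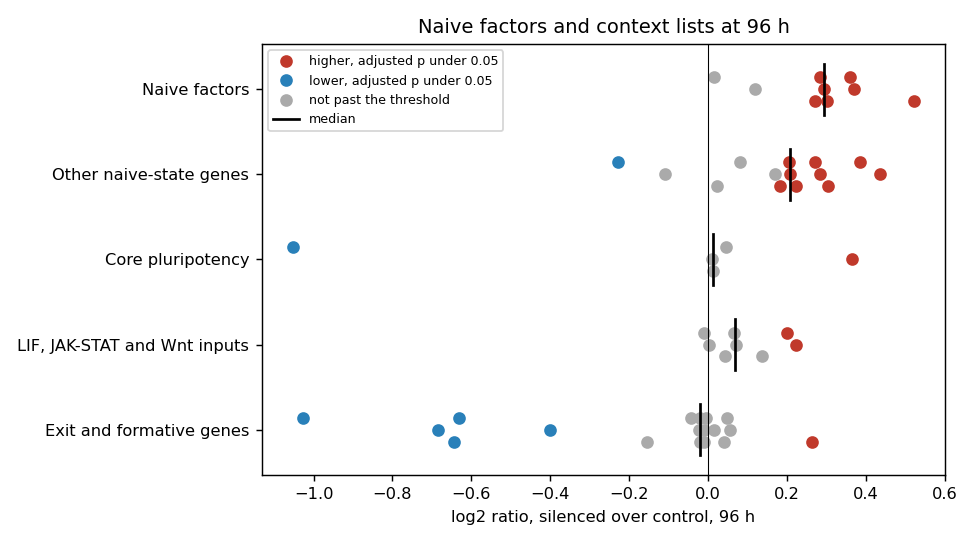
Log2 ratio of silenced to control cells at 96 h (horizontal axis) for the naive factors and 4 lists of related genes; each point is a gene, coloured by the limma call, and the black line is the median of the list. The naive factors (median 0.30) and the other naive-state genes (median 0.21) lie mostly right of 0, and 5 of 18 exit and formative genes lie at −0.40 or lower.

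Some of these factors are also made by other cells, and some markers of such cells passed at 96 h. Over all genes 6.64% were higher and 6.84% lower at that time. Sums of intensity given here are over every marker of a list, also those not well above background. Of 11 endoderm markers 9 were tested and 2 rose, the receptor genes Cubn and Amn. The sum over all 11 at 96 h was 1413 and 1430 in silenced and 1186 and 1194 in control cells. Ttr was not well above background in any channel. Of 8 feeder fibroblast markers 6 were tested, 4 fell and 1 rose, with sums of 2797 and 2756 in silenced and 3258 and 2974 in control cells; Postn and Lum were not well above background in any channel. Of 8 trophoblast markers 6 were tested and 1 rose, with sums of 5497 and 5577 against 4979 and 5501, and Gata3 and Elf5 were not well above background. With 6 genes tested, 1 call does not stand out from the share over all genes. The mesoderm and 2-cell-like lists had no call at 96 h among 4 and 2 genes tested. At 24 h no gene of these 5 lists passed. The part of endoderm, fibroblast or trophoblast cells in the rise of the naive factors was not tested.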

How the data were processed

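RNA of silenced and control D3 cells was hybridised to 4 two-colour Agilent arrays, with 200 ng of total RNA labelled per the labels. Per the file headers, the authors read the scans with version 10.7.1.1 of Agilent's Feature Extraction; limma, with no version, stands in the submitters' processing notes. The deposited files hold median spot and background intensity and processed intensity in arbitrary units, log10 ratios (Cy5 over Cy3) and, for each spot, a p-value of the scanner software. The deposited p-value entered no test. The authors' series table holds the same log10 ratios turned to silenced over control, within 5.0e-06.

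In R 4.3.3 with limma 3.58.1, median signals were background-corrected by normexp with an offset of 50 and normalised by loess within arrays, with the 1639 control spots at weight 0. Spots flagged as outliers (1 non-uniform, 680 population) were left out and spots of a probe averaged. Of 41174 probes 28080 passed the detection flag (well above background) on both arrays for 1 or more of the RNA groups, and the brightest probe per gene was tested. Silencing effects were fitted on the ratios of the 4 arrays with a mean per time and a dye term, which is the same split as the replicate number (1 residual and 35.2 prior degrees of freedom). The deviations of same-numbered arrays correlated at 0.70 over genes; with 2 pairs this does not tell dye from pairing. The time courses were fitted on the 8 channels after Aquantile normalisation with lmscFit (intraspot correlation 0.896). Tests are two-sided, with Benjamini-Hochberg adjustment over all 21752 genes and a threshold of 0.05; a fold is 2 to the power of the log2 difference. The fits were tested on simulated data.

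The members and lists were chosen with earlier results of these data known. Named genes are all members and, from each list, up to 4 genes with the smallest p past the threshold at 96 h. The array design refers to another genome build than the RefSeq table, so that only promoters carry coordinates.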

Additional observations from a re-analysis of the deposited data

Results flagged for a closer look

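The effect of silencing differed between 96 h and 24 h for 5 members, each larger at 96 h by limma's test of the difference: 0.46 for Tcl1, 0.36 for Tbx3, 0.35 for Nr0b1, 0.34 for Esrrb and 0.28 for Klf4 on the log2 scale. Tcl1, Esrrb, Tbx3 and Klf4 were positive on both 96 h arrays, and Nr0b1 on 1 of 2. None of the 5 passed with an offset of 16, the authors' ratios, no dye term or any 1 array left out, and Klf4 also did not pass with median centring, without the filter on dim probes or with the mean over probes. No group held enough arrays for a search for outlying samples.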

How the results depend on the processing

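The count of members that rose at 96 h, 7, was 7 with median centring, without the filter, with the mean over probes and in the fit across all probes (added after the data were seen), 2 with an offset of 16, and 0 without the replicate block, with the authors' ratios and with any 1 array left out. The 5 members whose effect differed between times became 3 with the mean over probes, 4 with median centring or no filter, and 0 with an offset of 16, the authors' ratios, no replicate block or any 1 array left out. The 24 h count, read on each gene's tested value, was 0 in all these settings; in the fit across all probes the Tfcp2l1 probe A_52_P516473 passed (0.44). In control cells the 3 members that fell became 5 with processed signals and 6 with the replicate block. In the time courses with 1 array left out, calls went in both directions. Klf2 rose in control cells without 96 h replicate 2, and Klf4, Tcl1 and Tbx3 rose in silenced cells without 24 h replicate 1. The replicate block is the dye term for silencing, and leaving out 96 h replicate 2 is also the fit within the first slide.

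Over all genes, the 85 calls at 24 h became 9 with the mean over probes, 42 with median centring and 0 with an offset of 16, the authors' ratios, no replicate block or 1 array left out, with 1614, 1571, 216 and 192 to 296 at an unadjusted p under 0.05. The 2933 calls at 96 h became 1798 with median centring (1126 higher, 672 lower, against 1445 and 1488), 1020 with an offset of 16, 106 without the replicate block, 29 to 114 with 1 array left out and 0 with the authors' ratios (3845 at an unadjusted p under 0.05). The 1529 differing calls became 974, 737, 271, 0, 0 and 0 with the mean over probes, median centring, an offset of 16, the authors' ratios, no replicate block and 1 array left out. With the replicate block 12385 genes changed in control cells (7920 without it) and 12574 in silenced cells (8101 without it).

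Signs turned for members near 0. At 24 h these were Esrrb (−0.0041), Tbx3 (−0.021) and Zfp42 (−0.026) with the authors' ratios and Klf4 (−0.0049) and Tbx3 (−0.00010) with median centring. With 1 array left out the 24 h ratio ran from −0.0085 to 0.066 for Esrrb, −0.0048 to 0.23 for Klf2, −0.0017 to 0.013 for Klf4, −0.090 to 0.099 for Tbx3, −0.10 to 0.15 for Zfp42, −0.31 to 0.22 for Nr0b1 and −0.0093 to 0.13 for Tcl1. The 96 h ratio ran from −0.044 to 0.073 for Klf5 and −0.0091 to 0.62 for Nr0b1, and the difference between times from −0.11 to 0.12 for Klf2, which was −0.011 with the authors' ratios. With the mean over probes Tfcp2l1 gave −0.0090 at 96 h, −0.23 for the difference and −0.35 over time in silenced cells, and Klf2 gave −0.19 over time in control and −0.10 in silenced cells. With processed signals Klf2 gave −0.080 in control cells and −0.086 in silenced cells, where Esrrb gave −0.12, Klf4 −0.092, Tbx3 −0.12 and Tfcp2l1 −0.073. With 1 array left out the change over time ran from −0.073 to 0.0081 for Tfcp2l1 in control cells, and in silenced cells from −0.041 to 0.35 for Klf4 and −0.025 to 0.23 for Tbx3. The cause of these changes was not tested. Fits without 1 array have no dye term for silencing, and assume that the lone array of a time varies like the others. For the time courses they use the intraspot correlation of all 4 arrays. All member probes were well above background in all 8 channels, though the Tfcp2l1 probe A_52_P63232 had raw signals of only 81 to 236.5. Whether signal over background bears on these changes was not tested.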
